A study of Mus musculus with 10 samples.

Results

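A set of 6 miRNA genes that lie inside the mouse Hox clusters, Mir10a, Mir10b, Mir196a-1, Mir196a-2, Mir196b and Mir615, were followed through small RNA-seq libraries of sorted Day 6 embryoid body (EB) cells. They were taken, by name, out of 1174 annotated mouse hairpins, and Gm44463, a further annotated miRNA gene inside the Hoxd cluster, was not analysed here. Of their 12 annotated arms, 4 had no reads in any library (Mir10a-3p, Mir196a-2-3p, Mir196b-3p and Mir615-5p). The others gave 7 arms that reads could tell apart, since Mir196a-1 and Mir196a-2 make the same 5p miRNA, called Mir196a-5p here. Of these, 6 passed the filter on low counts and were tested; Mir10b-3p was not tested.

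The 10 libraries form 5 groups of 2 replicates: E14 mPGCLC, BG5 mPGCLC, E14 non-PGCLC, BG5 non-PGCLC and SGET non-PGCLC. mPGCLCs are germ cell-like cells made from mouse embryonic stem cell (mESC) lines, and the non-PGCLC groups hold other cells of EBs made by the same protocol, so all groups share the 6 days of EB culture. All 3 lines are male. E14 (129/Ola) has no reporter, BG5 (C57BL/6J/DBA/129) carries Blimp1-GFP, and SGET (B6CBA/129) carries Stella-GFP and Esg1-tdTomato. By the study's methods E14 mPGCLCs were sorted as Ssea1+/Cd61+ and BG5 mPGCLCs as Ssea1+/Blimp1-GFP+, whereas the labels of every sample describe 1 mPGCLC gate, on Stella-GFP and Esg1-tdTomato, so the gate of a given library is not settled here. Each line is a single mESC line, and nothing in the labels says that replicates came from separate cultures, so the p-values below measure only the spread between these libraries. In these sorted bulk cells, fewer cells of a type and less miRNA per cell cannot be told apart.

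Hox genes are switched on in their order along each cluster as the body axis is laid down from head to tail, and the miRNAs embedded among them tend to be expressed with their neighbours. A miRNA is cut from one arm of a hairpin and pairs with mRNAs mainly through its seed, bases 2 to 8. Targets of miR-10 and miR-196 include Hox mRNAs themselves, with Hoxb8, which miR-196 pairs with almost perfectly, as the best known. These miRNAs are commonly read as marks of trunk and tail identity in tissues that have acquired axial position.

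In GRCm38 coordinates, Mir10a lies at chr11:96317165-96317274 (+ strand), 993 bp from Hoxb4, and Mir10b at chr2:74726070-74726137 (+), within introns of Hoxd3 and Hoxd4 transcripts. Mir196a-1 lies at chr11:96265164-96265265 (+), 6192 bp from Hoxb9. Mir196a-2 lies at chr15:102973350-102973434 (+), between Hoxc10 at 1457 bp and Hoxc9 at 3005 bp, inside an intron of a long Hoxc5 transcript. Mir196b lies at chr6:52230081-52230165 (− strand) and overlaps an exon of Hoxa9, and Mir615 at chr15:103014910-103015001 (+), in an intron of Hoxc5. The map of the clusters shows the miR-10 genes next to group 4 Hox genes and the miR-196 genes next to groups 9 and 10.

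**Figure D1:**
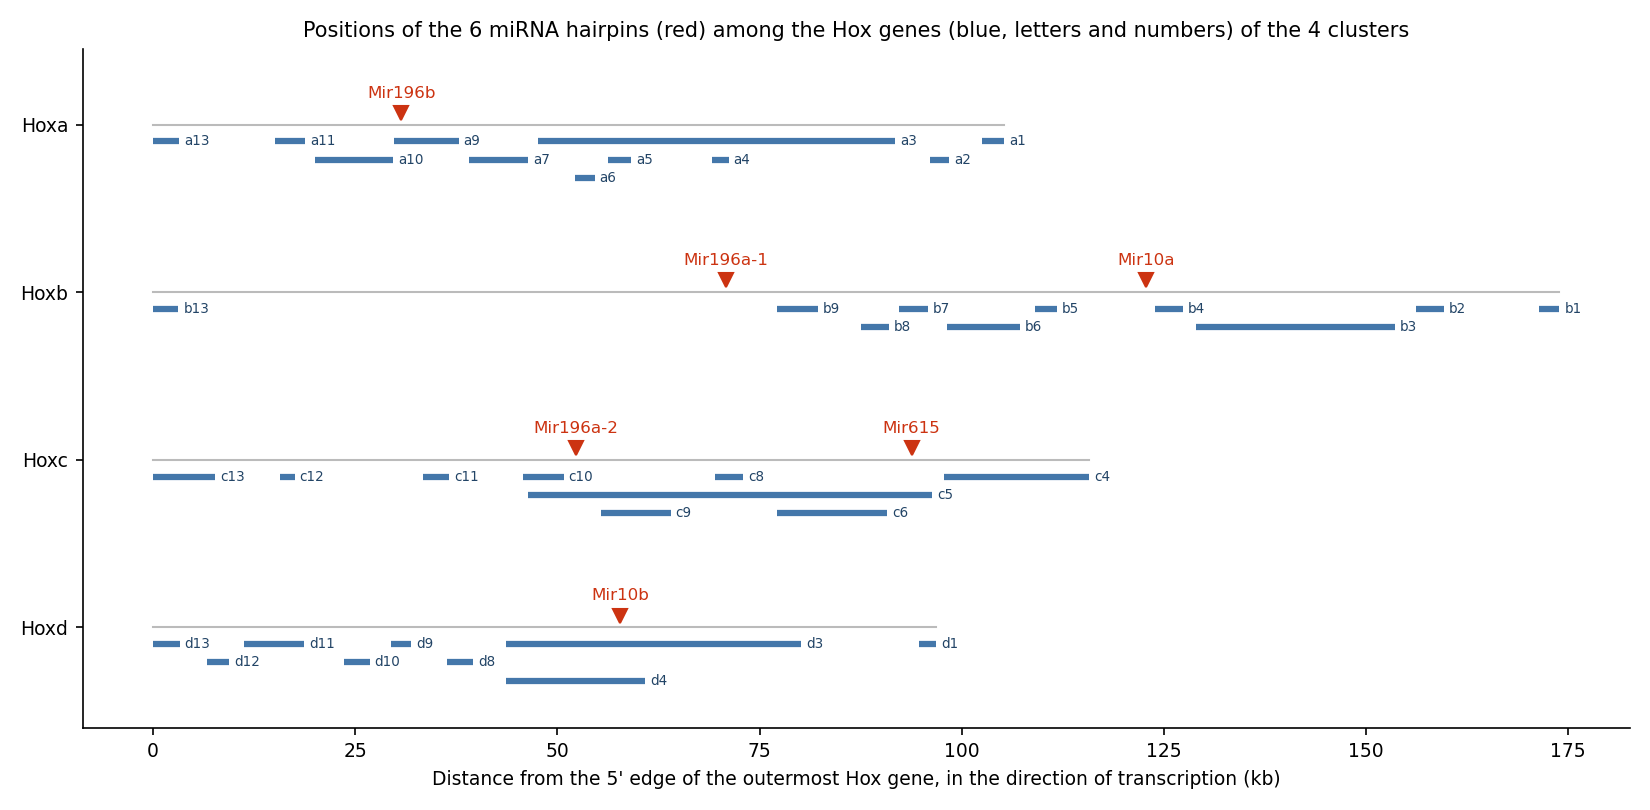
Positions of the 6 hairpins (red triangles) along the 4 Hox clusters, each drawn from its outermost gene in the direction of transcription (x axis, kb), with Hox genes as blue bars. Mir10a sits 993 bp from Hoxb4 and Mir196a-1 is 6192 bp from Hoxb9, so a single cluster, Hoxb, holds a gene of each family.

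The mature sequences of the arms with most reads are shown because the members of a family differ at a single base, on which the assignment of every read rests. They are RefSeq sequences (GRCm38.p6), 5′ to 3′, with the seed in capitals:
miR-10a-5p: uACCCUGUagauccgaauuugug
miR-10b-5p: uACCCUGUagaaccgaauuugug
miR-196a-5p: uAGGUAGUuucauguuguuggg
miR-196b-5p: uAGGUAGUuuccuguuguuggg
miR-615-3p: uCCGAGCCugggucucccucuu
miR-99b-5p: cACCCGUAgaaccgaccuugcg
let-7a-5p: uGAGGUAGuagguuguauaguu

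Mir10a-5p and Mir10b-5p agreed at 22 of 23 bases and differed by U12A (10a first, positions counted from the 5′ end), and Mir196a-5p and Mir196b-5p agreed at 21 of 22 and differed by A12C. Both differences lie outside the seed, so each family has 1 seed. The first 18 bases had to match exactly, so a read went to 1 paralog by base 12 alone. Among 1679 mature mouse miRNAs, the miR-10 seed was shared by no miRNA beyond its own pair and neither was the miR-196 seed. The 7 bases of the miR-196 seed did occur at bases 3 to 9 of 9 other miRNAs, as in let-7a-5p above. Of these, 7 carry the let-7 name and 1 is miR-98-5p, of the same family. miR-99b-5p is shown as a relative of miR-10, with the seed ACCCGUA in place of ACCCUGU.

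The libraries held 7421061 to 14444567 reads, 103197012 in all, of which 14.97% to 34.5% were assigned to miRNA arms. Levels are given as RPM, reads scaled to all reads of the deposited file, and 3 reads, taken as the limit of detection, were worth 0.208 to 0.404 RPM. The miRNA counts were patchy: of the arms over 20 reads in either replicate, 20.2% to 32.3% per group had no read in the other. PCR copies were not removed, so a count of reads is not a count of molecules, and these limits cover counting error only. One library stood apart for the Hox miRNAs: BG5 non-PGCLC replicate 1 gave 50.3% of all Mir196a-5p reads, 54.4% of Mir10a-5p, 58.1% of Mir615-3p, 74.7% of Mir196b-5p and 76.8% of Mir10b-5p reads. Because a group left with 1 library lets the filter on low counts keep 695 to 721 arms in place of 561, each fit that left out 1 library was run both with the filter applied again and with the same 561 arms, the latter chosen after seeing the data. Where such a fit leaves a compared group with 1 library, that library is assumed to vary like the other groups, so its p-value does not measure the spread within that group.

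As a check of the labels, miRNAs of the pluripotent and early germ cell list (the miR-290 and miR-302 clusters, led by Mir292-5p) summed to 53351 to 224377 RPM in mPGCLC, 93596 to 161308 RPM in E14 and SGET non-PGCLC, and 8199 and 9412 RPM in BG5 non-PGCLC. In E14 and BG5 the mPGCLC libraries lay above the non-PGCLC libraries of their own line without overlap, in E14 at 224377 and 196613 RPM against 135178 and 93596 RPM, whereas E14 and SGET non-PGCLC lay above BG5 mPGCLC. Of the 22 arms of this list tested, edgeR called 0 in E14 (median log2 change 0.55), where 16 of all 561 tested arms were called. In BG5 it called 15 higher in mPGCLC (median 3.87), where 47 of all 561 were called higher. miRNAs of mesenchyme, a list led by the shared 3p arm of Mir199a and Mir199b, summed to 17982 and 28680 RPM in BG5 non-PGCLC and to 306 to 2226 RPM in the other 8 libraries. Of the 8 mesenchyme arms tested, 5 were lower in mPGCLC over E14 and BG5 (7.13% of all tested arms were) and 0 were higher. In E14 alone 2 were lower, as were 13 of all 561 tested arms.

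Summed over the 7 arms, the Hox miRNAs reached 5666 and 835 RPM in the BG5 non-PGCLC replicates and 42.4 to 420 RPM in the other 8 libraries. Mir10b-5p was the most abundant arm by its mean over the 10 libraries (310 RPM, rank 100 of 763 arms with reads), followed by Mir196a-5p (244 RPM, rank 111), Mir10a-5p (178 RPM, rank 133), Mir196b-5p (64.6 RPM, rank 202) and Mir615-3p (43.1 RPM, rank 243). The order rested on BG5 non-PGCLC replicate 1: over the other 9 libraries Mir196a-5p came first (131.6 RPM), followed by Mir10a-5p (74.5 RPM) and Mir10b-5p (69.6 RPM). All 5 had their highest group mean in BG5 non-PGCLC. Only Mir196a-5p had reads in all 10 libraries.

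**Figure D2:**
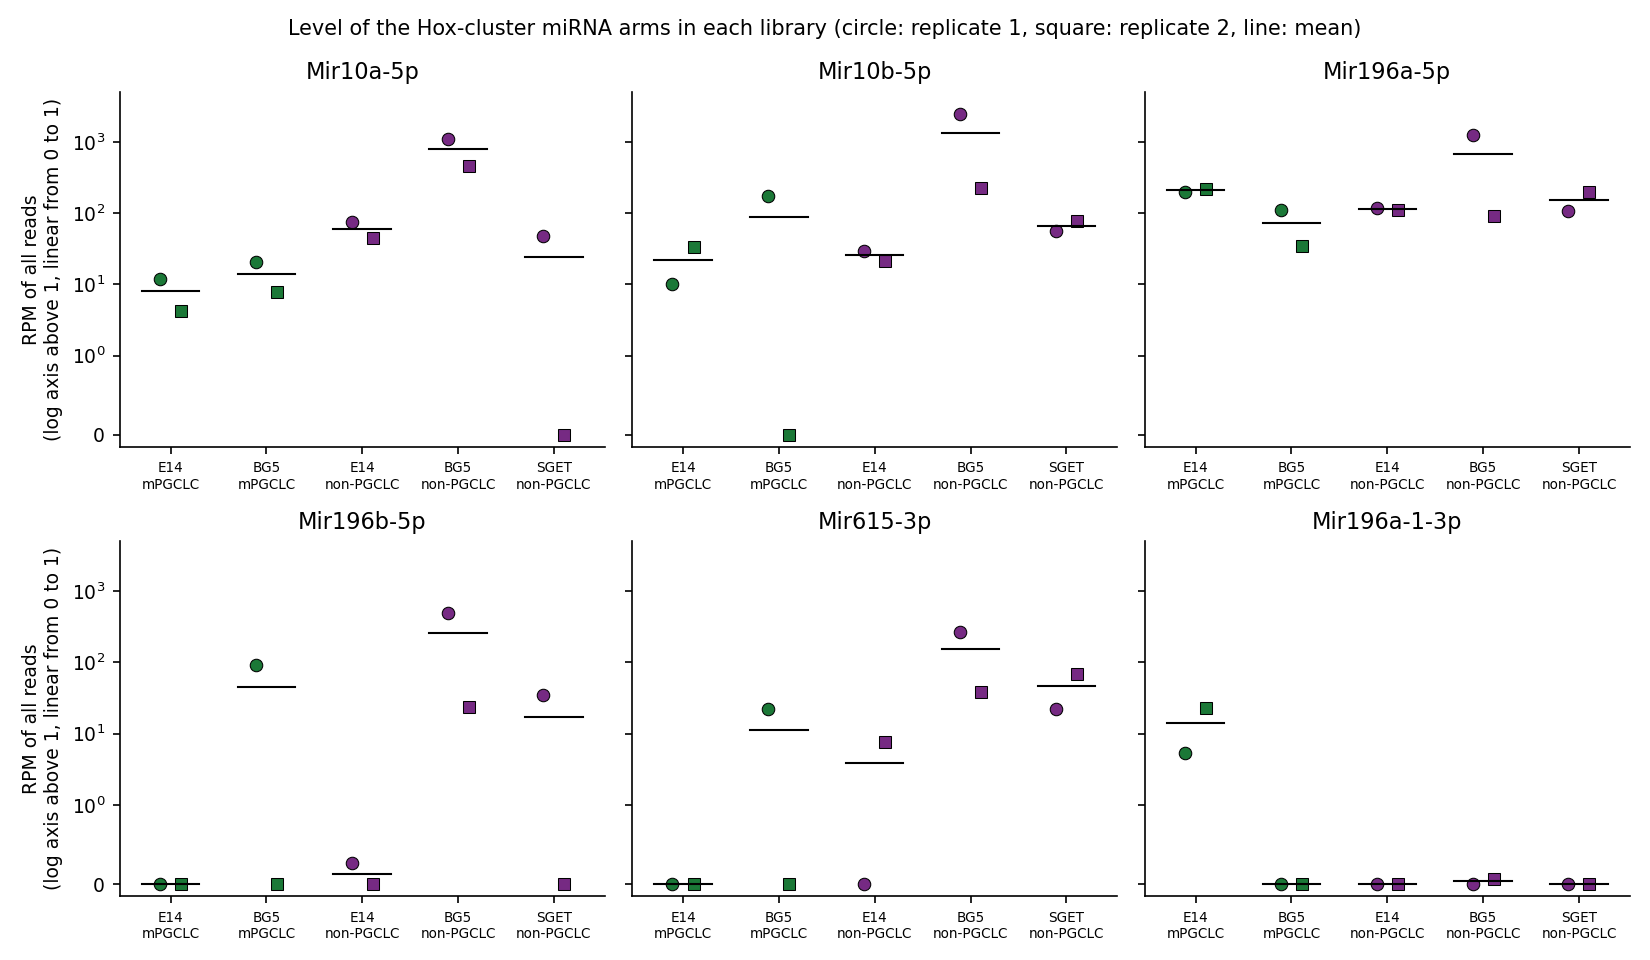
RPM of 6 arms in each library (y axis logarithmic above 1 RPM and linear from 0 to 1), with groups on the x axis, replicate 1 as a circle, replicate 2 as a square, the mean as a line, mPGCLC in green and non-PGCLC in purple. Mir10a-5p lies at 4.23 to 20.6 RPM in the 4 mPGCLC libraries and at 45.04 RPM or more in the 4 E14 and BG5 non-PGCLC libraries; several other arms have 1 replicate at 0.

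Mir10a-5p, from the Hoxb cluster, was the Hox miRNA whose levels separated the cell types. Its replicates were at 11.8 and 4.23 RPM in E14 mPGCLC and at 20.6 and 7.82 RPM in BG5 mPGCLC. They were at 74.7 and 45.04 RPM in E14 non-PGCLC, at 1112 and 458 RPM in BG5 non-PGCLC, and at 48.3 and 0 RPM in SGET non-PGCLC. All 4 mPGCLC libraries were below all 4 non-PGCLC libraries of E14 and BG5, a separation in this direction that 3.92% of the 561 tested arms showed. Over E14 and BG5, Mir10a-5p fell by 4.07 on the log2 scale in mPGCLC (SE 1.15, adjusted p = 0.022, edgeR's quasi-likelihood test).

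With edgeR as described, that was the single call among the 6 Hox arms tested in this comparison. Of all tested arms, 7.13% were called lower and 14.8% in either direction. Other settings called more. DESeq2 called Mir10a-5p, Mir196b-5p and Mir615-3p (160 of 511 arms overall). Without a filter, edgeR called Mir10a-5p, Mir10b-5p and Mir615-3p (96 of 763), and without TMM it called Mir10a-5p and Mir615-3p (75 of 561). Of the 10 fits that left out 1 library, 8 left a compared group with a single library, so they say little about the stability of the Mir10a-5p call. The fall was called in each of the 10 when the filter was applied again, with log2 changes of -4.57 to -3.75, and without BG5 non-PGCLC replicate 1 it was -3.75 with an adjusted p of 0.00449. With the same 561 arms the log2 changes were -4.56 to -3.73, but only the 4 fits without either BG5 non-PGCLC or either SGET library called it (adjusted p of 0.0354 without BG5 non-PGCLC replicate 1), and those without either library of E14 mPGCLC, E14 non-PGCLC or BG5 mPGCLC gave adjusted p of 0.0578 to 0.0936. Within BG5 alone the log2 change was -5.09 (SE 1.71, adjusted p = 0.0594), or -4.41 (adjusted p = 0.0499) without BG5 non-PGCLC replicate 1 (-4.51, adjusted p = 0.141, with the same 561 arms), and within E14 alone it was -3.06 (SE 1.56, adjusted p = 0.475). In both lines both mPGCLC replicates lay below both non-PGCLC replicates, as for 14.4% of all tested arms in E14 and 35.3% in BG5, and the difference between the lines did not pass the test (log2 -2.03, SE 2.06, adjusted p = 0.805). The mesenchyme list moved with Mir10a-5p in both lines, from 306 to 683 RPM in mPGCLC to 1685 RPM or more in the non-PGCLC libraries, and its leading arm was at 10.9 RPM or more in all 10 libraries; the part of this list in the result was not tested.

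The order of the Mir10a-5p group means was BG5 non-PGCLC (785 ± 463 RPM, SD, n = 2), E14 non-PGCLC (59.8 ± 20.9), SGET non-PGCLC (24.2 ± 34.2), BG5 mPGCLC (14.2 ± 9.04) and E14 mPGCLC (8.03 ± 5.39). BG5 non-PGCLC stood above E14 non-PGCLC with no overlap. The last 3 groups overlapped with each other, and SGET overlapped with E14 non-PGCLC. The 0 of SGET replicate 2, from 9775392 reads, allows a level of up to 0.307 RPM by counting error alone, while replicate 1 had 696 reads.

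Mir10b-5p, from the Hoxd cluster, shares the miR-10 seed. It was at 10.3 and 33.9 RPM in E14 mPGCLC and at 29.4 and 21.6 RPM in E14 non-PGCLC, and these groups overlapped. In BG5 mPGCLC it was at 175 and 0 RPM, in BG5 non-PGCLC at 2475 and 223 RPM, and in SGET non-PGCLC at 55.4 and 77.6 RPM. BG5 non-PGCLC was again above every other group, but its replicates differed 11.1-fold and those of BG5 mPGCLC ran from 0 to a level close to the lower BG5 non-PGCLC replicate.

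With edgeR on all libraries as described, Mir10b-5p did not pass the threshold in any comparison, although it passed in some with no filter, no TMM, the replicate number as a block, the compared groups alone or DESeq2. The log2 change in mPGCLC was -1.84 (SE 1.08, adjusted p = 0.323) over E14 and BG5 and -3.28 (SE 1.61, adjusted p = 0.272) within BG5. Without BG5 non-PGCLC replicate 1 these values were -0.66 (adjusted p = 1) and -0.91 (adjusted p = 0.997). Within BG5, 8 of the 10 fits that left out 1 library passed with the filter applied again, the exceptions being those without BG5 mPGCLC replicate 2 and without BG5 non-PGCLC replicate 1, but with the same 561 arms 1 passed, that without BG5 mPGCLC replicate 1 (log2 -16.0, against a remaining replicate at 0).

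The balance between the miR-10 paralogs changed from library to library. Mir10b-5p made up 46.4% and 88.9% of the miR-10 5p reads in E14 mPGCLC and 28.2% and 32.4% in E14 non-PGCLC. In BG5 mPGCLC it made up 89.5% and 0%, in BG5 non-PGCLC 69.0% and 32.8%, and in SGET non-PGCLC 53.4% and 100%. E14 was the line in which both mPGCLC replicates had a higher Mir10b-5p share than both non-PGCLC replicates. In every group other than E14 non-PGCLC the replicates were far apart.

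Mir10b-3p, the opposite arm, was seen in 1 library, BG5 non-PGCLC replicate 1, at 53.1 RPM (502 reads), the library where Mir10b-5p was also highest. The other 9 libraries had no read of it. No read of Mir10a-3p was found in any library.

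The relatives of miR-10 with a changed seed, the miR-99/100 family led by Mir99b-5p, summed to 6686 and 3796 RPM in BG5 non-PGCLC and 653 to 1090 RPM in the other 8 libraries. Of 4 arms of that family tested, 2 were lower in mPGCLC over E14 and BG5 (7.13% of all tested arms were) and 0 were higher. Its BG5 non-PGCLC replicates were therefore closer to each other than those of miR-10 5p, which summed to 3587 and 681 RPM there.

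Mir196a-5p, from the Hoxb and Hoxc clusters, was the Hox miRNA found in every library and the main one in E14 mPGCLC. Its replicates were at 198 and 218 RPM in E14 mPGCLC and at 118 and 111 RPM in E14 non-PGCLC. They were at 111 and 34.6 RPM in BG5 mPGCLC, at 1259 and 91.8 RPM in BG5 non-PGCLC, and at 107 and 195.9 RPM in SGET non-PGCLC. On this scale E14 mPGCLC exceeded E14 non-PGCLC with no overlap, but scaled to miRNA reads in place of all reads the groups overlapped, at 574 and 689 against 511 and 620. In BG5 the cell types overlapped and 1 library, BG5 non-PGCLC replicate 1, lay far above the rest.

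In E14 the log2 change of Mir196a-5p in mPGCLC was 0.67 (SE 0.783, adjusted p = 0.828), with an interval of -0.86 to 2.21 (1.96 SE to each side), and it was 0.16 with miRNA reads as library size. In that comparison 24.8% of all tested arms had mPGCLC replicates above both non-PGCLC replicates. Within BG5 the change was -2.40 (SE 0.82, adjusted p = 0.0661), and over both lines it was -0.86 (SE 0.555, adjusted p = 0.378). The difference between the lines was -3.07 (SE 1.13, adjusted p = 0.146).

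Removing BG5 non-PGCLC replicate 1 changed the sign of the Mir196a-5p change within BG5 to 0.25 (adjusted p = 1) and over both lines to 0.45 (adjusted p = 1), and the difference between the lines became -0.41 (adjusted p = 1). Within BG5, 8 of 10 fits without 1 library passed the threshold with the filter applied again, and 2 with the same 561 arms, those without BG5 non-PGCLC replicate 2 and without SGET non-PGCLC replicate 1. The fit over both lines passed in 0 of 10 either way. The difference between the lines passed in 3, those without BG5 non-PGCLC replicate 2 and without either SGET library, and with the same 561 arms in 1, that without BG5 non-PGCLC replicate 2.

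Ordered by mean, Mir196a-5p stood at 675 ± 825 RPM (SD, n = 2) in BG5 non-PGCLC, 208 ± 14.2 in E14 mPGCLC, 151 ± 63.0 in SGET non-PGCLC, 114 ± 4.80 in E14 non-PGCLC and 72.8 ± 54.0 in BG5 mPGCLC. BG5 non-PGCLC overlapped with every other group, with its lower replicate below both E14 non-PGCLC replicates. In RPM, E14 mPGCLC stood above SGET and E14 non-PGCLC in both replicates, but scaled to miRNA reads its replicate 1 (574) was below SGET non-PGCLC replicate 2 (603) and E14 non-PGCLC replicate 2 (620). As a share of the reads of all 7 Hox arms, Mir196a-5p took 87.8% and 78.2% in E14 mPGCLC, 53.01% and 59.9% in E14 non-PGCLC, 26.4% and 81.6% in BG5 mPGCLC, 39.95% and 57.1% in SGET non-PGCLC, and 22.2% and 10.99% in BG5 non-PGCLC.

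The 3p arm of Mir196a-1 was found in E14 mPGCLC, at 5.44 and 22.7 RPM (45 and 183 reads), and apart from 1 read in BG5 non-PGCLC replicate 2 in no other library. Taking 3 reads per library for groups at 0, the E14 mPGCLC mean was 44.2-fold above E14 non-PGCLC, 42.9-fold above BG5 mPGCLC and 54.7-fold above SGET non-PGCLC. Its lower replicate was 17.1-fold, 16.6-fold and 21.1-fold above them. These ratios cover counting error only and are not lower bounds. The arm did not pass the test in E14 (adjusted p = 0.598). Its reads in replicate 1 were all 1 sequence, and 98.4% of those in replicate 2 were 1 other sequence, and the number of molecules behind them is not known. The matching arm of Mir196a-2 had no reads.

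The identical 5p arms of the Mir196a genes can be told apart only past their last shared base, where base 23 of the hairpin is C in Mir196a-1 and A in Mir196a-2. Of the Mir196a-5p reads that ran to base 23, 2491 had A there, 1 had C, 249 had G and 2105 had T. A form with A and 20 or more reads was seen in 8 libraries. T and G match neither hairpin, so bases were also added or changed at this end, and A was among the added bases of the miR-10 arms, so an A at base 23 does not by itself assign a read to Mir196a-2.

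Mir196b-5p, from the Hoxa cluster, differed from its paralog in being at or near 0 in E14. It had 0 reads in both E14 mPGCLC libraries, where the limits of detection were 0.363 and 0.373 RPM, and 2 reads and 0 reads in E14 non-PGCLC. In BG5 mPGCLC it was at 90.9 and 0 RPM, in BG5 non-PGCLC at 497 and 23.8 RPM, and in SGET non-PGCLC at 34.5 and 0 RPM. BG5 non-PGCLC was the group with reads over the limit in both replicates.

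Against 3 reads per library in E14 mPGCLC, the Mir196b-5p mean in BG5 non-PGCLC was 708-fold higher and its lower replicate 64.8-fold higher. These ratios cover counting error only and are not lower bounds. In 2 of the 5 groups this arm had 0 reads in 1 replicate and over 20 in the other. BG5 non-PGCLC exceeded E14 non-PGCLC by a log2 change of 9.72 (SE 3.74), which did not pass the threshold (adjusted p = 0.102) and depends on the few reads in E14. In that comparison 9 of the 10 fits without 1 library passed with the filter applied again, the exception being that without BG5 non-PGCLC replicate 1 (log2 6.59, adjusted p = 0.433), and 3 passed with the same 561 arms, those without BG5 mPGCLC replicate 2 and without either SGET library. Where Mir196b-5p exceeded the limit of detection, it made up 20.6% to 45.02% of the miR-196 5p reads.

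Mir615-3p, from an intron of Hoxc5, had reads in 6 of the 10 libraries. It had 0 reads in both E14 mPGCLC libraries, 0 and 7.67 RPM in E14 non-PGCLC, and 22.5 and 0 RPM in BG5 mPGCLC. It was at 270 and 38.6 RPM in BG5 non-PGCLC and at 22.4 and 69.5 RPM in SGET non-PGCLC. BG5 and SGET non-PGCLC were the groups with reads in both replicates, and they overlapped with each other.

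Against 3 reads per library in E14 mPGCLC, the Mir615-3p mean was 420-fold higher in BG5 non-PGCLC and 125-fold higher in SGET non-PGCLC. Their lower replicates were 105-fold and 60.8-fold higher. These ratios are not lower bounds, since in 2 of the 5 groups this arm had 0 reads in 1 replicate and over 20 in the other. Over E14 and BG5, edgeR without TMM, edgeR without a filter and DESeq2 each called Mir615-3p lower in mPGCLC. With edgeR as described its log2 change there was -6.00 (SE 2.34, adjusted p = 0.115). It was -5.02 (adjusted p = 0.272) without BG5 non-PGCLC replicate 1, -1.57 (adjusted p = 1) without E14 non-PGCLC replicate 2 and -1.12 (adjusted p = 1) with exact matches alone. Of the 10 fits without 1 library, 5 passed with the filter applied again, and 1 with the same 561 arms, that without BG5 mPGCLC replicate 1.

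**Figure D3:**
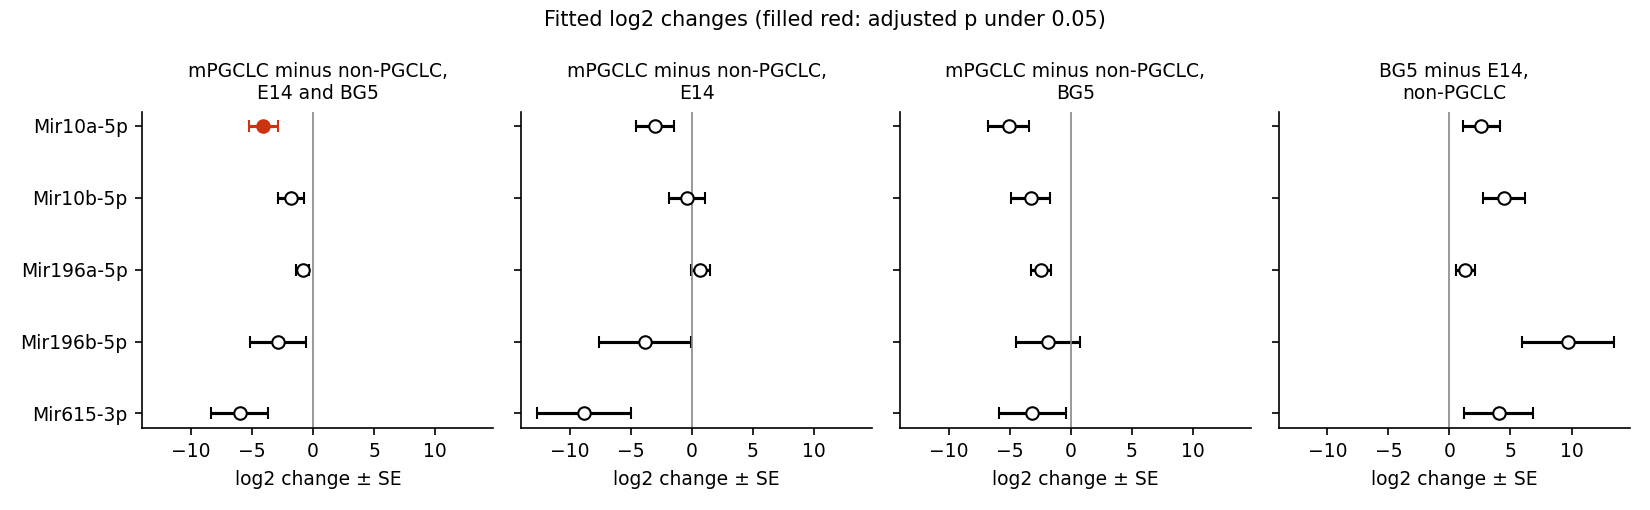
Log2 changes fitted with edgeR (points) and their SE (bars) for 5 arms, as mPGCLC minus non-PGCLC over both lines, in E14 and in BG5, and as BG5 minus E14 in non-PGCLC. The filled red point, Mir10a-5p over both lines at -4.07, is the one with an adjusted p under 0.05; changes of Mir196b-5p and Mir615-3p have wide errors, with some groups at or near 0.

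Taking the 6 tested arms by comparison, edgeR as described called 0 in every other contrast at an adjusted p under 0.05. Other settings of edgeR did call some. Without a filter, where 7 arms were tested, 3 were called within BG5 (12.3% of all arms), 3 for BG5 against E14 (13.2%) and 2 for SGET against BG5 (15.5%) in non-PGCLC, and 2 between the mPGCLCs (8.91%). Without TMM, 2 of 6 (12.3% of all arms), 2 (16.8%), 2 (18.2%) and 1 (9.45%) were called in these comparisons. Within E14, 0 of 6 were called (2.85% of all arms were), and 1 had an unadjusted p under 0.05, as did 65 of all 561 arms. The Wald test of DESeq2 called 1 (9.63% of all arms), Mir196b-5p, on 2 reads against 0. Within BG5, 0 of 6 were called against 14.1% of all arms, and 2 had an unadjusted p under 0.05, as did 115 of all 561 arms. DESeq2 called Mir10a-5p and Mir196a-5p there, against 24.5% of all arms.

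For the difference of the cell type effect between the lines, 0 of 6 were called (5.7% of all arms). An unadjusted p under 0.05 was found for 1 of the 6, as for 83 of all 561 arms, and DESeq2 called Mir196b-5p (16.4% of all arms). Between the BG5 and E14 mPGCLCs, 0 of 6 were called (10.2% of all arms), and 3 had an unadjusted p under 0.05, as did 100 of all 561 arms. DESeq2 called Mir196b-5p and Mir615-3p (19.8% of all arms), each of which was at 0 in 1 BG5 mPGCLC replicate. Mir196a-5p was lower in both BG5 mPGCLC replicates than in either E14 one, by -1.77 on the log2 scale (SE 0.803, adjusted p = 0.239). In that comparison 22.5% of all tested arms were lower in both BG5 replicates.

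Among the non-PGCLC groups, BG5 exceeded E14 without overlap for 4 of the 6 arms, Mir10a-5p, Mir10b-5p, Mir196b-5p and Mir615-3p, a pattern shown by 39.9% of all tested arms. edgeR called 0 of 6 there (15.5% of all arms), and 2 had an unadjusted p under 0.05, as did 133 of all 561 arms. DESeq2 called Mir10b-5p and Mir196b-5p (32.2% of all arms). The lowest adjusted p was that of Mir10b-5p (log2 4.48, SE 1.70, adjusted p = 0.0949), and 9 of 10 fits without 1 library called it with the filter applied again, all but that without BG5 non-PGCLC replicate 1 (log2 2.25, adjusted p = 0.565). With the same 561 arms 5 called it, and those without either E14 mPGCLC, either E14 non-PGCLC library or BG5 non-PGCLC replicate 1 did not. The mesenchyme list was 17982 and 28680 RPM in these BG5 libraries and 1685 and 1816 RPM in the E14 ones, and its part in the difference was not tested.

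SGET, the line with non-PGCLC cells alone, was compared with both other lines. Against E14, edgeR and DESeq2 each called 0 of the arms (4.63% of all arms with edgeR, 17% with DESeq2). With edgeR 0 had an unadjusted p under 0.05, against 71 of all 561 arms. Against BG5, edgeR called 0 of 6 (18.7% of all arms), and 2 had an unadjusted p under 0.05, as did 148 of all 561 arms. DESeq2 called Mir10a-5p (33.3% of all arms). The change of Mir10a-5p from BG5 to SGET was -4.30 (SE 1.64, adjusted p = 0.0876), and it was -3.62 (adjusted p = 0.125) without BG5 non-PGCLC replicate 1. Of the fits without 1 library, 8 of 10 passed with the filter applied again and 1 with the same 561 arms, that without SGET non-PGCLC replicate 1, where the remaining replicate was at 0. Both SGET replicates of Mir10b-5p and Mir615-3p were above both E14 non-PGCLC replicates, as were those of 22.3% of all tested arms.

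The reads also showed which ends the Hox miRNAs had. Over the 10 libraries, 26.9% of Mir10a-5p reads and 17.2% of Mir10b-5p reads began 1 nt downstream of the annotated 5′ end, against 2.14% for Mir196a-5p. The share of Mir196b-5p was 4.82%, but it rested on BG5 non-PGCLC replicate 1 (0.0213% of 4698 reads), and by library it was 32.5% in BG5 mPGCLC replicate 1, 11.7% in SGET non-PGCLC replicate 1 and 0% in BG5 non-PGCLC replicate 2. Without BG5 non-PGCLC replicate 1 the shares were 27.5% for Mir10a-5p, 12.8% for Mir10b-5p, 0.809% for Mir196a-5p and 19.0% for Mir196b-5p, so Mir196b-5p then lay above Mir10b-5p. Such a start moves the seed of miR-10 to CCCUGUA, which is the seed of 0 of the 1679 annotated mature miRNAs. The main Mir10a-5p forms with the annotated and with the shifted start are shown as read (T for U), with bases 2 to 8 of each in capitals:
annotated start: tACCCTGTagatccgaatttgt
shifted start: aCCCTGTAgatccgaatttgt

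In BG5 non-PGCLC, where reads were most numerous, the share of Mir10a-5p that started 1 nt downstream was 26.3% in replicate 1 and 28.2% in replicate 2. For Mir10b-5p it was 18.5% and 14.4%, and for Mir196a-5p 3.46% and 0%. The shifted start was therefore more frequent in both miR-10 arms than in Mir196a-5p in each of these replicates. In the other libraries the share rested on few sequences and ran from 0% to 100% for Mir10a-5p: all 80 reads of BG5 mPGCLC replicate 2 were 1 sequence, and 97.1% of the 34 reads of E14 mPGCLC replicate 2 were 1 sequence.

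The 3′ ends set Mir615-3p apart. While 41.8% of its reads ended in bases that match the hairpin, 30.7% ended in unmatched A, 21.97% in unmatched A and T together and 5.19% in unmatched T. These pooled shares rest on BG5 non-PGCLC replicate 1, which gave 58.1% of the reads, and they differed between libraries, as given below. In the miR-10 5p arms 93.4% and 95.5% of reads ended in matching bases, and in the miR-196 5p arms 87.2% and 88.1%. The 4 most frequent Mir615-3p forms are shown with unmatched 3′ bases in capitals:
21 nt: tccgagcctgggtctccctct
24 nt: tccgagcctgggtctccctcttAA
22 nt: tccgagcctgggtctccctctt
23 nt: tccgagcctgggtctccctctAT

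These forms made up 17.8%, 15.04%, 14.3% and 9.78% of Mir615-3p reads. The 21-nt form (782 reads) was seen in 1 library only, BG5 non-PGCLC replicate 1. By library, reads with unmatched 3′ bases made up 42.8% and 65.9% in BG5 non-PGCLC, all reads in both SGET non-PGCLC libraries and in E14 non-PGCLC replicate 2, and 0% of the 186 reads in BG5 mPGCLC replicate 1. An exact match over the whole read therefore removed every Mir615-3p read from SGET non-PGCLC. Outside BG5 non-PGCLC these shares rested on few sequences. Those of 20 or more reads numbered 2 in each SGET library and 1 in E14 non-PGCLC replicate 2 and in BG5 mPGCLC replicate 1. The deposited reads allowed up to 2 mismatches to the genome, so longer unmatched ends could not be seen.

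**Figure D4:**
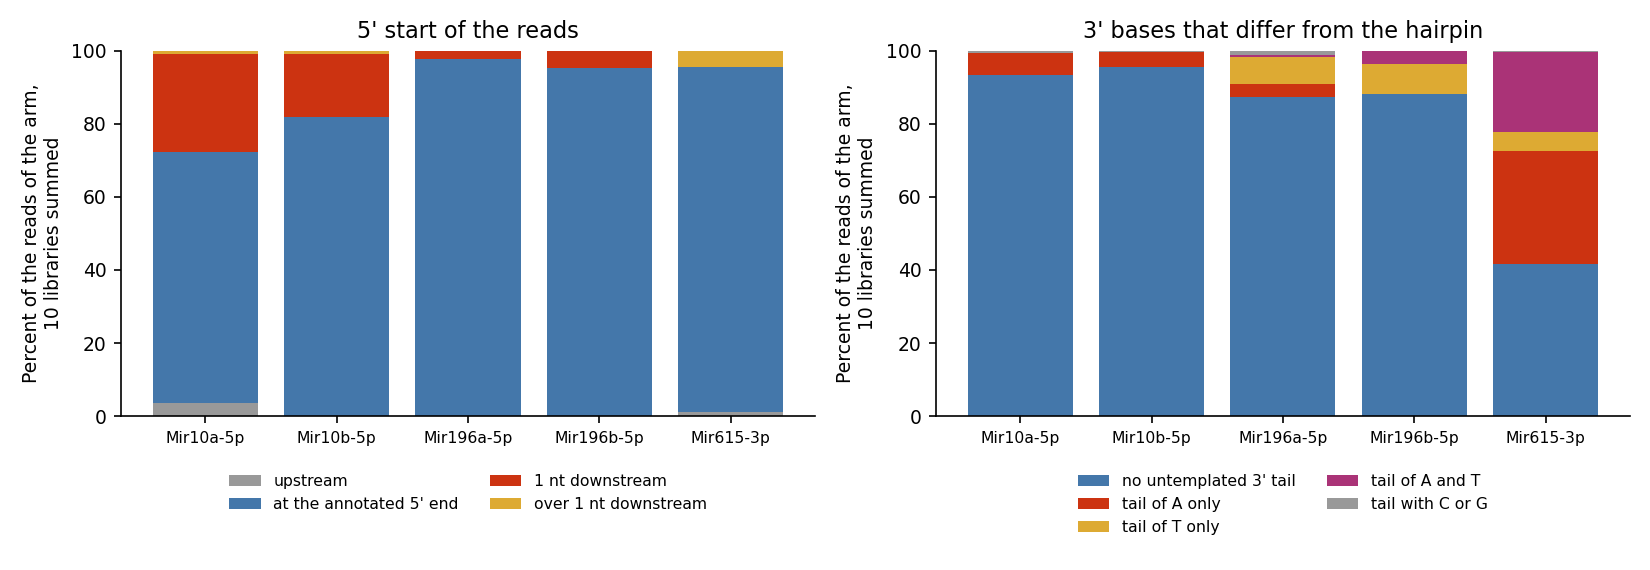
Percent of the reads of each arm, summed over 10 libraries (y axes), by 5′ start (left) and by the 3′ bases that do not match the hairpin (right). Starts 1 nt downstream make up 26.9% for Mir10a-5p and 17.2% for Mir10b-5p, and 41.8% of Mir615-3p reads have no unmatched 3′ end.

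Likeness of pattern was measured as the root mean square difference of log2(RPM + 1) over the 10 libraries after each arm was centred on its own mean, so a small value means a similar profile. Of 560 other tested arms, the profile nearest to Mir10b-5p was that of Mir615-3p (1.70), then those of Mir214-5p (1.71), Mir450-1-3p (1.72), Mir1843a-3p (1.72) and Mir143-3p (1.74), against a median of 3.02. Mir196b-5p came 13th, Mir196a-5p 17th and the paralog Mir10a-5p 141st (2.59). These nearest arms shared their highest level in BG5 non-PGCLC replicate 1, as Mir10b-5p did.

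For Mir196a-5p the nearest profiles were those of Mir7070-5p (0.757), Mir488-5p, Mir3107/Mir486-5p, Mir1197-5p and Mir3572-5p (0.855), against a median of 1.96. These were low arms, with means of 1.71 to 29.4 RPM, and 4 of the 5 were at 0 in BG5 non-PGCLC replicate 2 after 13.8 to 27.5 RPM in replicate 1. The paralog Mir196b-5p ranked 518th of 560 (2.88) and Mir10b-5p 304th. These distances are a description of 10 points, among them 1 unusual replicate.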

How the data were processed

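Small RNA was measured in 10 libraries. The deposited values are raw counts: each file lists the distinct reads of 1 library with their count. Per the study's methods and the submitters' notes, the authors merged the read files of a library (HiSeq and NovaSeq runs), trimmed adapters with cutadapt 3.2, removed the 4 random bases at each end without using them as molecular identifiers, discarded reads under 15 nt, and aligned the rest with STAR 2.5.3a (GRCm38, 2 mismatches, 100 positions at most and 1 of them reported). Copies made by PCR, and the share of each instrument, can therefore move the counts.

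Reads of 18 to 26 nt were assigned to arms of 1174 GENCODE vM21 hairpins, in sense, by an exact match of their first 18 nt, and 2 mismatches were accepted in the later bases; reads matching separate arms equally were dropped (0.245% to 0.662% of miRNA reads). Arms were named by their side of the hairpin, which gave the RefSeq name for 1384 of 1384 mature miRNAs. Counts were tested with edgeR 4.0.16 in R 4.3.3: all 10 libraries, 5 group means, total reads as library size, filterByExpr, TMM and Benjamini-Hochberg adjustment over 561 arms, at 0.05. SEs were derived from the log2 change and the F statistic. On simulated data for the comparison over E14 and BG5, at the real spread, the fit recovered 21.0% of 200 arms changed 4-fold (533 arms) and 31.5% changed 8-fold (527 arms). Alternatives were other scalings, no filter, DESeq2 1.42.0, only the groups compared, the replicate number as block, exact matches, 20 to 24 nt, miRNA reads as denominator, and leaving out each library, with the filter applied again and, added after seeing the data, with the 561 arms held. The text names all arms of the 6 hairpins, the 5 arms nearest in profile to the leading miR-10 and miR-196 arms, and the leading arm of a marker list. Members, lists and tests were chosen with earlier results of these data known. Lists for muscle, nerve, endothelium, blood, epithelium, endoderm and let-7 were also summed.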

Additional observations from a re-analysis of the deposited data

How the results depend on the processing

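The fall of Mir10a-5p in mPGCLC over E14 and BG5 kept its direction and stayed past the threshold in all 19 alternatives set out at the start, with log2 changes of -4.57 to -3.75 and adjusted p of 4.02e-09 to 0.0324, but in 4 of the 10 fits that left out 1 library with the 561 tested arms held, an alternative added after seeing the data (adjusted p of 1.28e-05 to 0.0936). Within BG5, 17 of the 19 and 3 of the 10 brought it past the threshold. The sign of Mir196a-5p rested on BG5 non-PGCLC replicate 1. Leaving out 1 library at a time gave it log2 changes of -1.29 to 0.45 over both lines, -3.25 to 0.25 within BG5, -1.20 to 2.15 for BG5 against E14 and -2.29 to 1.14 for SGET against BG5 in non-PGCLC, and the reversed value of each came without that library. With the 561 arms held, the reversed values were 0.46, 0.14, -1.22 and 1.22. Counts over all arms moved with the tool: DESeq2 called 160 arms over both lines (edgeR 83), 62 in E14 (16), 129 in BG5 (79), 84 for the difference between lines (32), 107 between mPGCLCs (57), and 160 (87), 92 (26) and 185 (105) for BG5 against E14, SGET against E14 and SGET against BG5 in non-PGCLC. In E14 the count was 8 without TMM and with only the compared groups, 26 with miRNA reads as library size and 30 without a filter, and SGET against E14 gave 9 with only the compared groups. Without 1 library the counts were 14 to 35 in E14, 33 to 57 for the difference between lines and 29 to 55 for SGET against E14, and with the 561 arms held 7 to 29, 27 to 46 and 2 to 42. The cause of these shifts was not tested. As a block, the replicate number gave 26 calls in E14. It brought Mir10b-5p past the threshold over both lines, and Mir10a-5p, Mir10b-5p and Mir196a-5p in BG5. In non-PGCLC it did so for Mir10b-5p and Mir196b-5p in BG5 against E14, and for Mir10a-5p and Mir10b-5p in SGET against BG5. Deviations of same-numbered libraries were hardly correlated (r = -0.046 in E14 and -0.0083 in BG5, across 561 arms). With many arms at 0 in 1 replicate, this cannot show whether such libraries were made together, which the sample titles do not say. Groups of 2, and counts that jump between 0 and over 20 reads, limit every comparison of Mir196b-5p and Mir615-3p.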

Other observations

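The let-7 list, of which some 5p members hold the 7 bases of the miR-196 seed 1 position further along, had its highest sums in the same BG5 non-PGCLC libraries as the Hox miRNAs, at 31617 and 24809 RPM against 839 to 10044 RPM in the other 8. Of 13 let-7 arms tested, 9 were lower in mPGCLC over E14 and BG5 (7.13% of all tested arms were) and 0 were higher. In E14 alone 0 were called, where 2.85% of all arms were, and in the test of the difference between BG5 and E14 8 of the 13 were called, all lower, against 5.7% of all arms called in either direction. Of the 10 epithelial arms, 3 were higher in mPGCLC over both lines, and of the 5 blood arms 1 was higher, against 14.8% of all arms called in either direction. No arm of the muscle (2 tested), nerve (4), endothelium (2) or endoderm (5) lists was called in that comparison by edgeR at an adjusted p under 0.05.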
